A study of Pan troglodytes with 50 samples.

Results

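The human and chimpanzee versions of human accelerated regions (HARs) were compared as pairs of reporter constructs in N3 cells of both chimpanzee lines. A pair joined the human and the chimpanzee allele of the same HAR and the same tile, a tile being one of the overlapping 171-base stretches that covered a long HAR. Of 2440 elements in the HAR library, 1678 oligos formed 839 pairs in 606 HARs, 435 HARs with a single pair and 171 with 2 or more. The assay was a lentiviral massively parallel reporter assay, in which an oligo placed in integrated viral DNA drives transcription of barcodes, and RNA over DNA of those barcodes measures its regulatory activity. The cells were neural progenitors made from the chimpanzee induced pluripotent stem cell lines Pt2A and Pt5C, each line from 1 animal. The labels call stage N3 glial progenitor cells in one field and iPSC-derived neural progenitors in another, with telencephalon as the tissue. Neither name could be checked against marker genes, because the data are barcode counts. All groups carried the same library: 6000000 cells were plated, infected and incubated for 4 days, at an estimated 50 to 100 viral particles per cell, in 3 replicate cultures per line with 1 RNA and 1 DNA library each. The cultures are separate infections of 1 line, so p-values over cultures do not measure the spread between animals. Both alleles were read in chimpanzee cells only.

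As background, HARs are sequences conserved across vertebrates in which an unusual number of bases changed after the human lineage split from the chimpanzee's, and many are thought to act as developmental enhancers. An enhancer is a stretch of DNA that transcription factors bind to raise transcription of a gene, and a substitution can create, weaken or move such a binding site. Placing both alleles in the same cells holds the cellular environment constant, so that a difference within a pair belongs to the constructs, that is, to the test sequence or to the barcoded copies that carry it. Because every culture received the same barcoded copies, a deviation of a few barcodes repeats in every culture. An allele difference was therefore called only where it passed both edgeR's quasi-likelihood test over cultures and a permutation test in which the barcodes of both alleles were shuffled within a pair, each with a Benjamini-Hochberg adjusted p under 0.05 over the 839 pairs and in the same direction. Differences are human minus chimpanzee on the log2 RNA over DNA scale, and levels are log2 RNA over DNA with the median of 120 negative control elements set to 0. Positions are on GRCh37 (hg19), 1-based, as the element names give them for the human allele.

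The barcodes are the sequences through which each allele was read, and those of the largest human gain and the largest human loss are shown because the spread between barcodes sets the error of every comparison here. For each allele the 2 barcodes with the highest summed N3 DNA count are given, 5′ to 3′, in lower case throughout as no base is singled out.
2xHAR.548 tile 2 human: taggtcggttcgtcc
2xHAR.548 tile 2 human: ttactccgttcatat
2xHAR.548 tile 2 chimpanzee: tgatgcatgacgtaa
2xHAR.548 tile 2 chimpanzee: ctagcaggctccagt
2xHAR.401 human: tcgcctcaggttgag
2xHAR.401 human: catgatcaattgctt
2xHAR.401 chimpanzee: tgaagcctcaaggcc
2xHAR.401 chimpanzee: taatccgtcttcgac
In the order printed, the human barcodes of 2xHAR.548 tile 2 had 303 DNA and 1534 RNA counts and 287 DNA and 1348 RNA counts over the 6 cultures, an RNA over DNA of 5.06 and 4.7. Its chimpanzee barcodes had 943 DNA and 1624 RNA counts and 942 DNA and 3473 RNA counts, a ratio of 1.72 and 3.69, so 2 barcodes of the same sequence differed from each other by more than most alleles did. The human barcodes of 2xHAR.401 gave 1.86 and 1.95, and its chimpanzee barcodes 2.38 and 3.18. Each paired allele was carried by 55 to 100 barcodes with RNA or DNA counts at N3 (median 83). Library totals ran from 5410033 to 29207558 counts for RNA and from 6641422 to 10091411 for DNA, with a median count per paired allele of at least 1632.5 in RNA and 2109.5 in DNA. RNA depth differed between the lines, with 20001868 counts or more in each Pt2A library and 16035684 or fewer in each Pt5C library.

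Most pairs differed little. The median difference over all 839 pairs was −0.00088, the median absolute difference 0.062, and the middle 90% of pairs lay between −0.17 and 0.16 in the mean of both lines. Human was the higher allele in 413 pairs and the lower in 426, and 47 pairs differed by more than 0.2 in either direction. The levels of the 2 alleles correlated at r = 0.81 over pairs, which share libraries and are given as a description. Both tests together called 20 pairs in 19 HARs, 2.38% of those tested, with human higher in 11 (1.31%) and lower in 9 (1.07%). The edgeR test alone passed 409 pairs (48.7%). The standard error over cultures had a median of 0.027, against 0.073 over barcodes, so the cultures repeated each other closely. The barcode error was the larger in 837 of 839 pairs. The barcode test at an unadjusted p under 0.05 gave 111 pairs. The difference had 1 sign in all 6 cultures in 299 pairs (35.6%), with human higher in 156 (18.6%) and lower in 143 (17.0%), and in 19 of the 20 that were called. The levels of the alleles did not overlap over the 6 cultures in 107 pairs (12.8%), and in 15 of the 20.

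The human allele rose most over the chimpanzee allele in 2xHAR.548 and 2xHAR.10. Tile 2 of 2xHAR.548 (chromosome 3, 70655342 to 70655512), which lies in the region of FOXP1, a transcription factor of neural and other tissues, had differences of 1.05, 1.11 and 1.06 in the 3 cultures of Pt2A and 0.45, 0.61 and 0.59 in those of Pt5C. All 6 cultures favoured the human allele, and the level of every human culture was above every chimpanzee culture. The fitted mean difference was 0.80 ± 0.088 (standard error over barcodes, 83 human and 82 chimpanzee barcodes), or 1.74-fold, with an adjusted permutation p of 0.000932, which corresponds to the smallest p, 1e-05, that the 100000 permutations can give. Human activity was 1.41 ± 0.093 in Pt2A and 0.94 ± 0.036 in Pt5C (SD, n = 3 cultures), against 0.33 ± 0.084 and 0.39 ± 0.076 for chimpanzee, and of the negative controls the middle 90% lay between −0.18 and 0.29 in Pt2A and between −0.19 and 0.35 in Pt5C. Single barcodes with at least 10 DNA counts, summed over the cultures and without centring on the controls, ranged from −0.86 to 2.47 for the human allele (median 1.31) and from −1.33 to 1.02 for the chimpanzee allele (median 0.36). Of the human barcodes 90.7% lay above the chimpanzee median. Here and below, such sums give more weight to Pt2A, whose RNA libraries were deeper.

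Tile 1 of 2xHAR.548 (chromosome 3, 70655294 to 70655464) shares 123 bases with tile 2 and is read through other barcodes. Its differences were 0.82, 0.68 and 0.75 in the 3 cultures of Pt2A and 0.52, 0.54 and 0.55 in those of Pt5C, again with no overlap of the alleles. It gave 0.64 ± 0.082 in the mean (1.56-fold, adjusted permutation p = 0.000932). The human tile 1 reached 1.58 ± 0.033 in Pt5C and 1.25 ± 0.048 in Pt2A, and the chimpanzee tile 1.04 ± 0.027 and 0.50 ± 0.069. 2xHAR.548 was the one HAR with 2 tiles called in the mean of the lines.

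For tile 1 of 2xHAR.10 (chromosome 2, 113992950 to 113993120), in the region of PAX8, a transcription factor of kidney, thyroid and hindbrain development, the differences were 0.73, 0.74 and 0.75 in the 3 cultures of Pt2A and 0.62, 0.54 and 0.62 in those of Pt5C. They spread little within a line. The fitted difference was 0.67 ± 0.060 (1.59-fold, 95 human and 98 chimpanzee barcodes, adjusted permutation p = 0.000932), and 96.8% of human barcodes lay above the chimpanzee median, the highest share among the called pairs. Levels were 1.18 ± 0.042 against 0.44 ± 0.031 in Pt2A and 1.26 ± 0.042 against 0.67 ± 0.037 in Pt5C. In tile 2 (chromosome 2, 113993070 to 113993240) both alleles lay far above the negative controls, with human at 1.40 ± 0.088 and chimpanzee at 1.23 ± 0.052 in Pt2A. Its difference of 0.17 ± 0.067 was not called (adjusted permutation p = 0.132). The HAR is 291 bases long in the human and 310 in the chimpanzee allele, and whether tile 1 itself holds inserted or deleted bases was not tested.

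The other human gains were between 0.21 and 0.32. 2xHAR.520 tile 1 (chromosome 3, 161591807 to 161591977) had 0.29, 0.27 and 0.16 in the 3 cultures of Pt2A and 0.35, 0.40 and 0.48 in those of Pt5C, a fit of 0.32 ± 0.061 and an adjusted permutation p of 0.000932. Its chimpanzee allele was at −0.017 ± 0.023 in Pt2A and −0.11 ± 0.072 in Pt5C, near the negative control median, and its human allele at 0.22 ± 0.060 and 0.30 ± 0.0087. 2xHAR.530 (chromosome 10, 107100448 to 107100618) was alike, from −0.075 ± 0.013 for chimpanzee to 0.16 ± 0.079 for human in Pt2A, with a difference of 0.22 ± 0.050 that was called in each line. HAR183 tile 2 (chromosome 17, 6050406 to 6050576; 0.26 ± 0.071, adjusted permutation p = 0.0263) and 2xHAR.70 tile 3 (chromosome 5, 164259986 to 164260156; 0.23 ± 0.062, 0.0345) had chimpanzee alleles below the negative control median in both lines.

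2xHAR.149 (chromosome 7, 1277066 to 1277236) was the most active of these smaller gains, with human at 0.97 ± 0.032 and chimpanzee at 0.68 ± 0.026 in Pt2A, 0.87 ± 0.021 and 0.74 ± 0.020 in Pt5C, and a mean difference of 0.21 ± 0.058. It was called in Pt2A (0.29 ± 0.065) and not in Pt5C (0.13 ± 0.056, adjusted permutation p = 0.288), and the line difference of −0.16 was called. 2xHAR.273 (chromosome 9, 117803534 to 117803704) gave 0.24 ± 0.074. 2xHAR.445 (chromosome 20, 30753247 to 30753417; 0.24 ± 0.067) and 2xHAR.424 tile 3 (chromosome 14, 37504165 to 37504335; 0.30 ± 0.059) had most of their mean difference in Pt5C, at 0.38 and 0.50 there and 0.11 and 0.11 in Pt2A. Adjusted permutation p-values of these 4 pairs were 0.0168, 0.0316, 0.00168 and 0.000932.

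The human allele fell furthest below the chimpanzee allele in 2xHAR.401 (chromosome 17, 5667563 to 5667733), with differences of −0.82, −0.95 and −0.93 in the 3 cultures of Pt2A and −0.16, −0.19 and −0.14 in those of Pt5C. Every culture had the human allele lower, and the lines did not overlap in the size of the loss. The fit was −0.53 ± 0.071 (1.44-fold higher in chimpanzee, 86 human and 91 chimpanzee barcodes, adjusted permutation p = 0.000932). The human allele sat near the negative control median, at −0.082 ± 0.020 in Pt2A and −0.015 ± 0.0050 in Pt5C, while the chimpanzee allele was at 0.82 ± 0.056 and 0.14 ± 0.031. Barcodes ranged from −1.05 to 1.02 for the human allele (median −0.094) and from −1.80 to 1.48 for the chimpanzee allele (median 0.59), and 3.57% of human barcodes exceeded the chimpanzee median. These barcode values, summed over the cultures, mostly reflect Pt2A, where the loss was larger.

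Losses of similar size in both lines were found for 2xHAR.518, 2xHAR.430 tile 1 and 2xHAR.385 tile 2. 2xHAR.518 (chromosome 14, 80280283 to 80280453), in NRXN3, a gene for a synaptic adhesion protein, had −0.24, −0.23 and −0.34 in the 3 cultures of Pt2A and −0.36, −0.35 and −0.37 in those of Pt5C. Its 6 values were the most alike of the called losses, and it gave −0.32 ± 0.065 (adjusted permutation p = 0.000932), from 0.32 ± 0.067 for chimpanzee to 0.053 ± 0.068 for human in Pt2A and from 0.41 ± 0.047 to 0.054 ± 0.034 in Pt5C. 2xHAR.430 tile 1 (chromosome 21, 16093057 to 16093227) had −0.28, −0.31 and −0.27 in the 3 cultures of Pt2A and −0.31, −0.50 and −0.33 in those of Pt5C, a fit of −0.33 ± 0.071. The values of 2xHAR.385 tile 2 (chromosome 7, 25357769 to 25357939) were −0.36, −0.29 and −0.52 in the 3 cultures of Pt2A and −0.36, −0.19 and −0.41 in those of Pt5C, a fit of −0.35 ± 0.065. Both had an adjusted permutation p of 0.000932.

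Smaller losses were 2xHAR.534 (chromosome 9, 28859235 to 28859405; −0.26 ± 0.064), 2xHAR.104 (chromosome 3, 68971799 to 68971969; −0.23 ± 0.069), 2xHAR.9 (chromosome 20, 708949 to 709119; −0.21 ± 0.061), 2xHAR.503 (chromosome 3, 26975666 to 26975836; −0.20 ± 0.063) and 2xHAR.121 tile 2 (chromosome 16, 78992195 to 78992365; −0.17 ± 0.049). Their adjusted permutation p-values were 0.0186, 0.0432, 0.0181, 0.0432 and 0.0299. The human alleles of 2xHAR.534, 2xHAR.503 and 2xHAR.121 tile 2 lay below the negative control median in both lines. With every barcode weighted equally, and 1 normal test over barcodes in place of both tests, the difference of 2xHAR.534 was −0.086 and was no longer called. The same weighting ended the calls of 2xHAR.503 (−0.12), 2xHAR.121 tile 2 (−0.13) and, among the gains, 2xHAR.70 tile 3 (0.14). Leaving out 1 culture ended 6 of the 20 calls: 2xHAR.104 was no longer called without Pt2A replicate 3, Pt5C replicate 2 or Pt5C replicate 3 (differences then of −0.21, −0.21 and −0.24). 2xHAR.121 tile 2 lost its call without Pt2A replicate 1, Pt5C replicate 1 or Pt5C replicate 2 (−0.15, −0.15 and −0.16). The call of 2xHAR.503 ended without Pt2A replicate 2, Pt2A replicate 3 or Pt5C replicate 3 (−0.21, −0.18 and −0.17). 2xHAR.70 tile 3 lost its call without Pt2A replicate 1, Pt5C replicate 1 or Pt5C replicate 2 (0.22, 0.23 and 0.21). The call of 2xHAR.273 ended without Pt2A replicate 2 or Pt5C replicate 3 (0.21 and 0.23). HAR183 tile 2 lost its call without Pt5C replicate 1 (0.23).

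The size of a difference did not by itself decide a call. HAR152, with 68 human and 57 chimpanzee barcodes, had the largest difference that was not called, 0.41 ± 0.17 (adjusted permutation p = 0.257), and 62 pairs that were not called differed by more than the smallest called difference of −0.17 in absolute size. When pairs were ranked by the mean level of both alleles, a level that the differing allele itself helps to set, the top 279 pairs (levels from 0.10) held 13 calls, the middle 280 pairs 4 and the lowest 280 pairs (levels up to −0.030) 3. Median absolute differences were 0.073, 0.065 and 0.051, and median barcode errors 0.078, 0.074 and 0.069, in that order. The difference in the number of calls was not tested. Over the 20 called pairs, the higher allele was above the negative control median in 19 and both alleles were in 11. The human allele exceeded the 95th percentile of the negative controls in 6 of the 20 in Pt2A and 8 in Pt5C, and the chimpanzee allele in 8 and 7. These counts cover the called pairs only and do not compare them with the other pairs.

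Pairs from HARs of unequal length were set beside the rest. The whole HAR differed in length between the species in 45 pairs of 19 HARs, and 2 of these were called, 2xHAR.10 tile 1 and 2xHAR.520 tile 1 (180 human and 185 chimpanzee bases), beside 18 of the 794 pairs of HARs of equal length. Which of the 45 tiles hold the added or lost bases was not determined. Their median absolute difference was 0.068, against 0.061 for the 794. In 7 pairs a restriction site had been changed in design in a way that differed between the alleles, and none of these was called, with differences from −0.21 for 2xHAR.192 to 0.072 for 2xHAR.251. Neither difference in frequency was tested.

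Overlapping tiles of a HAR give the same bases with other barcodes. In 21 couples of tiles that share at least 160 of 171 bases, 2xHAR.520 among them, the allele differences of the 2 tiles did not follow each other (r = −0.070, Spearman's rho = 0.13), most being near 0, and the same sign was seen in 13 of 21. The median gap between the tiles was 0.055, with a median barcode error of the gap of 0.11, and 3 couples differed by more than 2 such errors. The widest in units of its error was 2xHAR.520, at 0.32 in tile 1 and −0.068 ± 0.072 in tile 2, which overlap by 162 bases in the human allele. There the chimpanzee allele itself differed between tiles, from −0.11 ± 0.072 in tile 1 to 0.36 ± 0.026 in tile 2 in Pt5C, while the human alleles were at 0.30 ± 0.0087 and 0.32 ± 0.038. HAR161 (0.15 and −0.17) and 2xHAR.77 (0.21 and −0.17) were the others, and no tile of either was called. Among 68 couples that share 100 to 159 bases the correlation was 0.60, with a rank correlation of 0.28, both tiles were called in 1 couple, 2xHAR.548, and 4 couples differed by more than 2 errors. That couple had by far the largest differences of the 68 (0.64 and 0.80), and the correlation without it was not computed. Among 87 couples that share 50 to 99 bases the correlation was 0.11, with a rank correlation of 0.040, and 16 couples differed by more than 2 errors. For 73 couples that share 1 to 49 bases the correlation was −0.017, and 6 differed by more than 2 errors. For 69 couples that share 0 bases it was −0.22, and 12 did. Couples are not independent where a HAR has more than 2 tiles, and these values are descriptions.

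Of the called pairs, the neighbouring tiles behaved in several ways. Tile 1 of HAR183 (0.12) and tile 3 of 2xHAR.121 (−0.17) had the sign of the called tile without being called. Tile 1 of 2xHAR.121 (−0.029), tile 2 of 2xHAR.430 (−0.046), tile 1 of 2xHAR.385 (0.068) and tile 2 of 2xHAR.70 (0.012) were near 0. Tile 3 of 2xHAR.385 was at −0.14 ± 0.068, with the sign of the called tile, and tile 1 of 2xHAR.70, which shares no bases with the called tile 3, was at −0.12 ± 0.078, with the opposite sign. In 2xHAR.424 the tiles had differences of −0.21, 0.084 and 0.30 from tile 1 to tile 3, and in Pt5C tile 1 was called lower (−0.28 ± 0.090) and tile 3 higher (0.50 ± 0.071) in human, the call of tile 1 being lost without Pt5C replicate 1 or replicate 3. These tiles are offset by 75 bases each, so tile 1 and tile 3 share 21 bases.

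By line, 22 pairs were called in Pt2A (2.62%, 11 higher and 11 lower in human, each 1.31%) and 24 in Pt5C (2.86%, 13 higher, 1.55%, and 11 lower, 1.31%). The edgeR test alone passed 277 pairs (33.0%) in Pt2A and 288 (34.3%) in Pt5C. Without Pt2A replicate 2 the count in Pt2A was 14. The lines had 8 calls in common, 36.4% of the Pt2A calls and 33.3% of the Pt5C calls, all 8 in the same direction: both tiles of 2xHAR.548, 2xHAR.10 tile 1, 2xHAR.520 tile 1, 2xHAR.530, 2xHAR.518, 2xHAR.385 tile 2 and 2xHAR.430 tile 1. Of these, 2xHAR.430 tile 1 lost its call in Pt2A without Pt2A replicate 2, 2xHAR.520 tile 1 without Pt2A replicate 1 or replicate 2, and 2xHAR.530 its call in Pt5C without Pt5C replicate 1 or replicate 2. Over all 839 pairs the differences in Pt2A and Pt5C correlated at r = 0.67, and those of single cultures at 0.48 to 0.56 between lines and at 0.63 to 0.73 within a line. The lines share their barcoded copies, so this correlation includes the spread between barcodes.

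The difference between the lines was then tested itself, as the allele difference in Pt5C minus that in Pt2A. Both tests called 45 of 839 pairs (5.36%), 24 positive (2.86%) and 21 negative (2.5%), edgeR alone 53 (6.32%). Without Pt5C replicate 1 the count was 27. Culture values of the allele difference were fully separated between the lines in 159 pairs (19.0%) and in 44 of the 45. In this contrast the same barcodes are compared in both lines, and the barcode error was smaller, with a median of 0.060. The 2 lines had opposite signs in 23 of the 45 pairs, which were selected for differing between the lines. The share over all pairs is not given here, so this count does not set these pairs apart. Since each line is from 1 animal, the contrast compares 2 lines.

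2xHAR.401 had the largest such difference, 0.74 ± 0.055 (adjusted permutation p = 0.000524), from −0.90 ± 0.067 in Pt2A to −0.16 ± 0.083 in Pt5C, where the pair was not called. The difference lay in the chimpanzee allele, whose level was 0.82 ± 0.056 in Pt2A and 0.14 ± 0.031 in Pt5C, while the human allele stayed near the negative control median in both. 2xHAR.9 moved the other way, by −0.62 ± 0.044, with culture differences of 0.10, 0.15 and 0.060 in the 3 cultures of Pt2A and −0.53, −0.51 and −0.52 in those of Pt5C. Its human allele had like levels in the lines (0.40 ± 0.071 and 0.41 ± 0.016) and its chimpanzee allele was at 0.30 ± 0.073 in Pt2A and 0.93 ± 0.010 in Pt5C. It was the one pair called in the mean whose cultures differ in sign. In Pt2A it was not called (0.10 ± 0.068, adjusted permutation p = 0.584), so its mean of −0.21 is the average of 2 lines with opposite signs.

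In 2xHAR.548 both tiles favoured the human allele less in Pt5C, tile 2 by −0.54 ± 0.061 and tile 1 by −0.21 ± 0.047, and 2xHAR.10 tile 1 did so by −0.15 ± 0.035. All 3 were called in each line. The line difference of 2xHAR.10 tile 1 lost its call without Pt5C replicate 2 (−0.12), and that of 2xHAR.548 tile 1 with barcodes weighted equally (−0.15). In 2xHAR.548 tile 2 it was the human level that differed, 1.41 ± 0.093 in Pt2A and 0.94 ± 0.036 in Pt5C. In 2xHAR.424 tile 3 (0.40 ± 0.068) and 2xHAR.445 (0.26 ± 0.057) the human gain was larger in Pt5C. The human allele of 2xHAR.424 tile 3 was at 0.070 ± 0.042 in Pt2A and 0.60 ± 0.0055 in Pt5C, and its cultures were 0.12, 0.15 and 0.039 in the 3 cultures of Pt2A and 0.57, 0.47 and 0.46 in those of Pt5C. 2xHAR.234 tile 2 (chromosome 1, 19688236 to 19688406) had 0.042, 0.013 and 0.13 in the 3 cultures of Pt2A and −0.43, −0.37 and −0.48 in those of Pt5C, a line difference of −0.50 ± 0.075. For 2xHAR.247 the values were −0.36, −0.37 and −0.28 in the 3 cultures of Pt2A and 0.24, 0.078 and 0.16 in those of Pt5C, a line difference of 0.49 ± 0.069, and it was called in neither line. 2xHAR.513 tile 2 (chromosome 12, 60916557 to 60916727; 0.39 ± 0.055) and 2xHAR.21 tile 2 (chromosome 16, 80079931 to 80080101; −0.34 ± 0.084) complete the 4 largest differences in each direction. Without Pt5C replicate 1 that of 2xHAR.21 tile 2 was −0.29 and not called.

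Of the pairs called in 1 line and not in the mean, 9 were called in Pt2A and 9 in Pt5C. In Pt2A the largest were 2xHAR.348 (chromosome 2, 190306145 to 190306315; −0.42 ± 0.088), 2xHAR.101 tile 1 (chromosome 9, 16708804 to 16708974; −0.35 ± 0.094) and 2xHAR.28 (chromosome 9, 1045534 to 1045704; 0.33 ± 0.074), and all 3 differed between the lines by the test of that difference. 2xHAR.101 tile 1 lost both calls without Pt2A replicate 1, with a line difference of 0.23. The chimpanzee allele of 2xHAR.348 was at 1.03 ± 0.033 in Pt2A and 0.31 ± 0.020 in Pt5C. HAR5 tile 2 (−0.29 ± 0.094 in Pt2A) and 2xHAR.205 tile 2 (−0.29 ± 0.082) were called in Pt2A alone, but the line difference was not called for either (0.010 and 0.086). 2xHAR.147 (0.18 ± 0.054) and 2xHAR.81 tile 2 (0.21 ± 0.057) were called in Pt2A with line differences of −0.035 and −0.13, likewise not called. These 4 pairs each lost the call in Pt2A without Pt2A replicate 2, and without 1 other culture too (replicate 1 for 2xHAR.205 tile 2, replicate 3 for the rest).

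In Pt5C the calls outside the mean were led by 2xHAR.234 tile 2 (−0.43 ± 0.11), 2xHAR.513 tile 1 (0.31 ± 0.088) and tile 2 (0.31 ± 0.076), 2xHAR.152 tile 1 (−0.28 ± 0.059) and tile 2 (−0.21 ± 0.054), and 2xHAR.472 (0.25 ± 0.064). Each of these also passed the test of the line difference. Without Pt5C replicate 1, 2xHAR.513 tile 1, 2xHAR.152 tile 2 and 2xHAR.472 lost both calls, with line differences of 0.19, −0.12 and 0.18. In 2xHAR.513 (chromosome 12) and 2xHAR.152 (chromosome 9) both overlapping tiles moved in the same direction, human higher in the former and lower in the latter. In 2xHAR.152 tile 1 the cultures were −0.12, −0.062 and −0.086 in the 3 cultures of Pt2A and −0.30, −0.29 and −0.25 in those of Pt5C. 2xHAR.47 was called in Pt5C (0.23 ± 0.072) and had nearly the same difference in Pt2A (0.22 ± 0.074, adjusted permutation p = 0.0814), and leaving out any 1 of the 3 Pt5C cultures ended its call.

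The allele difference was also compared with that at N2, the stage labelled neural progenitor cells. Comparing N3 with N2 in the mean of the lines, both tests called 77 pairs (9.18%), 42 of them positive (5.01%) and 35 negative (4.17%), but this count depended on the N2 libraries. In Pt2A alone it was 104 (12.4%), and in Pt5C alone 1 (0.119%), with 67 in Pt5C (7.99%) at unadjusted p-values under 0.05 in both tests. With N3 DNA of the line as denominator at both stages it was 40. Over pairs, N3 and N2 differences correlated at 0.79 in Pt5C and at 0.34 in Pt2A. The cultures of Pt2A at N2 correlated with each other at 0.81 to 0.83, and their RNA libraries held 22134610 to 41867492 counts, against 13946232 to 22765532 in Pt5C at N2. In Pt2A the stage cannot be told apart from what else separated these libraries.

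2xHAR.548 tile 2 was 0.050 ± 0.10 at N2 and 1.07 ± 0.032 at N3 in Pt2A, and 0.29 ± 0.19 and 0.55 ± 0.086 in Pt5C (SD, n = 3 each). The stage difference in the mean was 0.64 ± 0.061, and 0.37 with N3 DNA. 2xHAR.10 tile 1 (0.35 ± 0.026) and 2xHAR.401 (−0.45 ± 0.035) kept their calls with N3 DNA, at 0.33 and −0.44, as did 2xHAR.432 (0.39 ± 0.037 and 0.34). In Pt5C alone these 4 stage differences were 0.25, 0.22, −0.11 and 0.15, none of them called. 2xHAR.510 (0.38), 2xHAR.205 tile 1 (−0.36), 2xHAR.556 (−0.35) and 2xHAR.411 tile 1 (−0.32) lost theirs with N3 DNA, where they were 0.099, −0.036, −0.063 and −0.061. The 1 pair called in Pt5C alone was 2xHAR.234 tile 2, with −0.086 ± 0.037 at N2 and −0.43 ± 0.054 at N3.

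Several HARs were given whatever their result. 2xHAR.142 (chromosome 14, 34048648 to 34048818), within NPAS3, which encodes a transcription factor active in neurons, differed by −0.041 ± 0.046, with both alleles below the negative control median (human −0.22 ± 0.019 and chimpanzee −0.17 ± 0.016 in Pt2A). 2xHAR.183 (chromosome 2, 11531871 to 11532041) was active in both alleles, more so in Pt5C, at 1.12 ± 0.067 for human and 1.01 ± 0.034 for chimpanzee, and differed by 0.083 ± 0.066. 2xHAR.164 (chromosome 2, 133346944 to 133347114; −0.068 ± 0.066) and 2xHAR.170 (chromosome 5, 153640253 to 153640423; 0.087 ± 0.073) were not called. In 2xHAR.20, near the homeobox gene EN1, tiles 1, 2 and 4 differed by 0.086, 0.052 and 0.064. Tile 3 (chromosome 2, 119067418 to 119067588) had −0.18, −0.19 and −0.28 in the 3 cultures of Pt2A and −0.33, −0.34 and −0.34 in those of Pt5C, with every culture lower in human. Its fit of −0.28 ± 0.093 did not pass the barcode test (adjusted permutation p = 0.13 in the mean and 0.093 in Pt5C).

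For 4 paired HARs, matched between the libraries by HAR name, the permutation library held an all-human and an all-chimpanzee sequence. These were read in Pt2A at N3, in 3 other cultures and through barcodes of which 0 are shared with the HAR library. Whether they equal the HAR library alleles base for base was not checked. The element names give the sites that separate the alleles, written as the chimpanzee base, the position in the element as the names count it, and the human base. They are A90G, C91T, G125T, T134C, A135G, T148C and A149G for 2xHAR.142, T43A, T73C, T76C and T92C for 2xHAR.164, C69T, T73G and T95C for 2xHAR.170 and T59C, T64C and C112G for HAR34. 2xHAR.142 had differences of −0.014, 0.042 and 0.032 there and a mean of 0.020 ± 0.064 (error over barcodes), against −0.049 ± 0.050 in the HAR library in Pt2A. 2xHAR.164 gave 0.026 ± 0.063 against −0.067 ± 0.067, and 2xHAR.170 0.038 ± 0.11 against 0.14 ± 0.072. HAR34 was at 0.093, 0.075 and 0.033, a mean of 0.067 ± 0.083, against −0.11 ± 0.060. In 3 of the 4 the sign differed between the libraries, and in each library all 4 differences were within 2 barcode errors of 0. None was called in either library. In the permutation library both tests called 0 of 768 variants tested against their chimpanzee sequence (0.0%), edgeR alone 277 (36.1%), and 14 variants (1.82%) had unadjusted p-values under 0.05 in both tests.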

How the data were processed

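Per the labels' protocols, RNA and genomic DNA were extracted from the same culture, cDNA and DNA received a 10 bp unique molecular identifier in the first amplification, and sequencing read a 15-base barcode. The deposited files give, for each library, a count per barcode and the element the barcode belongs to. The sources used here give neither whether the authors counted reads or unique molecules nor which software assigned the barcodes, and the submitters' processing notes name GRCh37. If reads were counted, PCR copies are in the counts, and counting error alone understates their spread. Element sequences were not used here.

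For every allele, the counts of its barcodes were added up. Differences were fitted with edgeR 4.0.16 (quasi-likelihood test, R 4.3.3) on 24 HAR libraries (12 N3 libraries for the N3 comparisons), with TMM factors over all 2440 elements and Benjamini-Hochberg adjustment over the 839 pairs. A two-sided permutation test shuffled barcodes between both alleles of a pair 100000 times (for the line and stage differences, on the same barcodes in both conditions), and its standard error is that of a ratio of sums over barcodes. A call needed an adjusted p under 0.05 in both tests. The exception was the setting with barcodes weighted equally, where a call rested on 1 adjusted normal test over barcodes. Every pair had at least 10 barcodes per allele, and no element was removed for low counts. Values per culture are log2 RNA over DNA with a pseudocount of 0.5 added to the counts, centred on the median of the 120 negative control elements, and are means ± SD over 3 cultures. RNA and DNA of the same replicate number were paired to give them. DESeq2 1.42.0 and other settings were alternatives. The scripts were tested on simulated data. Pairs were named by rule: up to 12 per direction called in the mean, up to 4 per line and direction called in 1 line alone, up to 4 per direction for the line and stage differences, the other tiles of their HARs, and, whatever their result, 2xHAR.10, 2xHAR.183, 2xHAR.401, 2xHAR.20, 2xHAR.548, 2xHAR.142, 2xHAR.518, 2xHAR.170 and 2xHAR.164. HAR152 and the pairs with a changed restriction site, and HAR34, HAR161 and 2xHAR.77, were added after their values were seen. The pairs, lists and tests were chosen with earlier results of these data known. Regions printed beside FOXP1, PAX8, NRXN3, NPAS3 and EN1 are background knowledge, since no annotation of GRCh37 was used here. The permutation library was analysed in the same way.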

Additional observations from a re-analysis of the deposited data

Results flagged for a closer look

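The test of the line difference marked 24 of the 71 pairs named by the rule, as the human minus chimpanzee difference in Pt5C minus that in Pt2A. Over all 839 pairs it called 45 (5.36%). Some pairs were named because this test called them, and others because they were called in 1 line alone. The share among named pairs therefore follows in part from how they were chosen. The line difference was positive in 2xHAR.401 (0.74), 2xHAR.247 (0.49), 2xHAR.424 tile 3 (0.40), 2xHAR.513 tile 2 (0.39), 2xHAR.348 (0.35), 2xHAR.101 tile 1 (0.31), 2xHAR.445 (0.26), 2xHAR.253 (0.26), 2xHAR.472 (0.22), 2xHAR.513 tile 1 (0.20) and 2xHAR.520 tile 1 (0.15). It was negative in 2xHAR.9 (−0.62), 2xHAR.548 tile 2 (−0.54), 2xHAR.234 tile 2 (−0.50), 2xHAR.21 tile 2 (−0.34), 2xHAR.28 (−0.28), 2xHAR.548 tile 1 (−0.21), 2xHAR.432 (−0.19), 2xHAR.152 tile 1 (−0.19), 2xHAR.534 (−0.19), 2xHAR.149 (−0.16), 2xHAR.10 tile 1 (−0.15), 2xHAR.152 tile 2 (−0.14) and HAR172 tile 1 (−0.13). Each line is from 1 animal, so these values compare 2 lines.

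The stage difference, N3 minus N2 in the mean of the lines, was called in 11 of the 20 pairs called in the mean at N3. Over all 839 pairs it was called in 77 (9.18%). The N3 difference that chose these 20 pairs is also a part of the stage difference. Their share therefore follows in part from how they were chosen. The stage difference was also called in other named pairs, such as 2xHAR.101 tile 1 (−0.20). Only the 8 pairs that the rule named for their stage difference are listed here. That difference was positive in 2xHAR.548 tile 2 (0.64), 2xHAR.432 (0.39), 2xHAR.510 (0.38) and 2xHAR.10 tile 1 (0.35). It was negative in 2xHAR.401 (−0.45), 2xHAR.205 tile 1 (−0.36), 2xHAR.556 (−0.35) and 2xHAR.411 tile 1 (−0.32). Of these 8, 2xHAR.510, 2xHAR.205 tile 1, 2xHAR.556 and 2xHAR.411 tile 1 were not called with N3 DNA as the denominator at both stages, and none of the 8 was called in Pt5C alone.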

How the results depend on the processing

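The count of pairs called in the mean of the lines was 18 to 27 over all alternatives (main 20), with 18 to 21 when 1 culture was left out, 26 without the strongest barcode of each allele, 27 with barcodes weighted equally, and 18 among pairs whose HAR has equal length in both species and whose alleles have equal restriction edits, the last chosen after seeing the data. Counts with equal weights, here and below, rest on 1 normal test over barcodes, without edgeR or permutation. They are therefore not like for like with the main counts. Of the 20 pairs, 13 were called in all 17 alternative settings and 7 were lost in at least 1 and at most 4, and no direction changed. These are not 17 independent checks. Changing the minimum number of barcodes or the low-count filter left the same 839 pairs and could end no call. Other size factors, blocks and DESeq2 replaced only the edgeR fit and kept the permutation result of the main analysis. In that analysis edgeR alone passed 409 pairs. In Pt2A the count was 14 to 23 (main 22) when 1 culture was left out, with 14 without replicate 2, and in Pt5C it was 18 to 31 (main 24) over all alternatives. The line difference gave 45 pairs, 27 to 36 when 1 culture was left out (27 without Pt5C replicate 1) and 19 with barcodes weighted equally, of which 17 were among the 45. The stage difference gave 77 pairs, 58 to 75 when 1 culture was left out, 40 with N3 DNA at both stages (25 of them among the 77) and 1 in Pt5C alone. The one named pair that changed sign was 2xHAR.530, whose stage difference of 0.18 was −0.00926 with N3 DNA and was called in neither. The causes of these changes were not tested. The minimum number of barcodes and the low-count filter removed no pair at any setting, so they could change nothing. The pseudocount changed no value beyond its spread, and DESeq2 changed no call of a named pair in the mean.

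With a replicate block that pairs RNA and DNA of the same number, the counts were 20 in the mean, 22 in Pt2A, 24 in Pt5C, 46 for the line difference, 89 for the stage difference and 0 in the permutation library. Deviations of RNA and DNA of the same number correlated at −0.051 to 0.031, and those of different numbers at −0.037 to 0.053. With all values near 0, this check cannot tell whether the numbers pair the libraries. For the allele difference at N3 the precision was set mostly by the 55 to 100 barcodes per allele, whose error was the larger in 837 of 839 pairs. For the stage difference in Pt5C the 2 tests could part: 2xHAR.10 tile 1 had an adjusted permutation p of 0.0028 and an edgeR adjusted p of 0.379. The edgeR value comes from 1 fit over all 24 libraries, and what limited the calls in Pt5C was not tested.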

Other observations

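The permutation library also holds human and chimpanzee alleles of regions outside the 839 pairs, read in Pt2A at N3. HARE5, an enhancer of the Wnt receptor gene FZD8 as background, was covered by 8 tiles, and none was called. Tile 4 had differences of 0.27, 0.24 and 0.14 in the 3 cultures, from 0.14 ± 0.015 for chimpanzee to 0.36 ± 0.053 for human (SD, n = 3). Its mean of 0.22 ± 0.065 (standard error over barcodes) had a permutation p of 0.00312 before and 0.996 after adjustment over the 768 variants. Tiles 2, 6, 7 and 8 were lower in human in all 3 cultures, at −0.089 ± 0.041, −0.11 ± 0.053, −0.14 ± 0.086 and −0.026 ± 0.070, and tile 5 was higher in all 3, at 0.018 ± 0.049. Tiles 1 and 3 had both signs, at −0.033 ± 0.14 and −0.023 ± 0.066.

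Human minus chimpanzee was −0.011 ± 0.054 for 2xHAR.1, 0.045 ± 0.077 for 2xHAR.238, and −0.013 ± 0.049 and −0.036 ± 0.057 for the 2 tiles of 2xHAR.65. None was called.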
